A study of Homo sapiens with 8 samples.

Results

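The RNA of CEM cells that carried a scrambled shRNA was described here gene by gene. CEM is an established human cell line of T-ALL, an acute leukaemia of immature T cells of the thymus. The series holds 8 arrays, and 4 of them, titled control 1 to control 4, are the cultures described. These cultures received a hairpin of scrambled sequence, so they are not untreated cells. The design text calls the cultures biological replicates that are not paired. Every gene was given 1 value per array, that of the probe set with a single gene symbol and the highest mean over the 4 control arrays. A probe set is the group of short probes that reads 1 transcript. This left 20282 genes out of 54675 probe sets, and 10740 of the genes had more than 1 probe set to choose from.

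T-ALL cells stop at a stage of thymocyte development and keep the genes of that stage. In normal thymocytes the T cell receptor and its CD3 subunits pass a signal to the kinases LCK and ZAP70, and factors such as TCF7, GATA3 and BCL11B hold the T lineage fate. In the leukaemia, transcription factors that thymocytes normally silence, such as TAL1 and LMO2, are often switched on, NOTCH1 is often overactive and MYC drives growth, which asks for ribosomes, nucleotides and amino acids.

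Values are log2 RMA levels, so a difference of 1 is a 2-fold difference. RMA corrects each array for background, gives all arrays the same distribution and sums the probes of a probe set. The level of a gene also depends on how well its probes bind, so genes were placed in bands, and where genes were picked by their level this is no order of RNA amount. The background level was set at 7.67, the 95th percentile of 47 measured genes whose RNA is made mainly in organs such as liver, muscle, retina or pancreas; their median was 4.67, and 3 of them, LCT and CYP2E1 included, lay above the line. Above it were 7901 genes (39% of all genes). The top 10% of genes began at a level of 10.87 and held 2029 genes. A gene at or below the line may still have RNA, since a weak probe set cannot be told apart from a gene without RNA. The line does not sit in a gap: 1731 genes lay within 0.5 of it. COG4, ZNF343 and SLC9A8 were just above it, and BST1, DHX34 and PTPDC1 just below. The 4 arrays are few, and their number limits the precision of each SD.

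The lineage label was checked first. Of 12 T cell markers, 8 were above background and 4, namely CD3E, CD2, CD5 and CD7, were not. Among these 12 markers, the kinases LCK and ZAP70 and the factors TCF7, GATA3 and BCL11B were above the line, but not all genes of surface proteins were. CD3D, a signalling subunit of the receptor complex, stood at 13.38, 13.48, 13.44 and 13.34 on controls 1, 2, 3 and 4. These values lay within 0.14 of each other, in the top 10% of genes. CD3G, another CD3 subunit, read 11.33, 11.01, 10.87 and 10.69, with control 1 highest and control 4 lowest. CD247, the zeta chain that carries the signal inward, read 9.68, 10.01, 10.03 and 10.23, and here control 1 was lowest and control 4 highest. TRBC1, a constant segment of the receptor beta chain, averaged 12.60 ± 0.15 (SD, n = 4). CD3E averaged 7.36 ± 0.11 and was at or below background on each array, as were PTCRA, the surrogate alpha chain of immature receptors, at 7.02 ± 0.10, TRBC2 at 6.25 and TRAC at 5.86. In all, 4 of 8 measured genes of the receptor complex were above background, against 39% of all genes. CD3E, CD7 and PTCRA come above the line when all probe sets of a gene are averaged, at 7.36, 6.87 and 6.85 against a line that then lies at 6.73.

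Of the surface receptors 10 of 23 were above background, a share near the 39% of all genes. CXCR4, the chemokine receptor that guides cells to marrow, averaged 12.57 ± 0.08 in its brightest probe set. Its other probe sets had larger spreads, at 9.91, 10.29, 10.39 and 11.04 in one and 10.06, 10.57, 10.55 and 11.12 in the other, both lowest on control 1 and highest on control 4. CD44, an adhesion receptor, averaged 11.25 ± 0.13. The transferrin receptor TFRC averaged 13.34 ± 0.11, and CD38, an ectoenzyme found on thymocytes, averaged 10.13 ± 0.24. The pan-T markers were lower: CD2, an adhesion receptor, averaged 4.02 ± 0.14, CD5, a brake on receptor signalling, 5.70 ± 0.10 and CD7 7.52 ± 0.14. The costimulator CD28 averaged 5.20 ± 0.31. IL7R, the receptor for interleukin 7, read 8.37, 7.47, 7.43 and 7.52, so control 1 alone was above the line. Without control 1 its mean was 7.47, under a line that moved to 7.77.

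**Figure D1:**
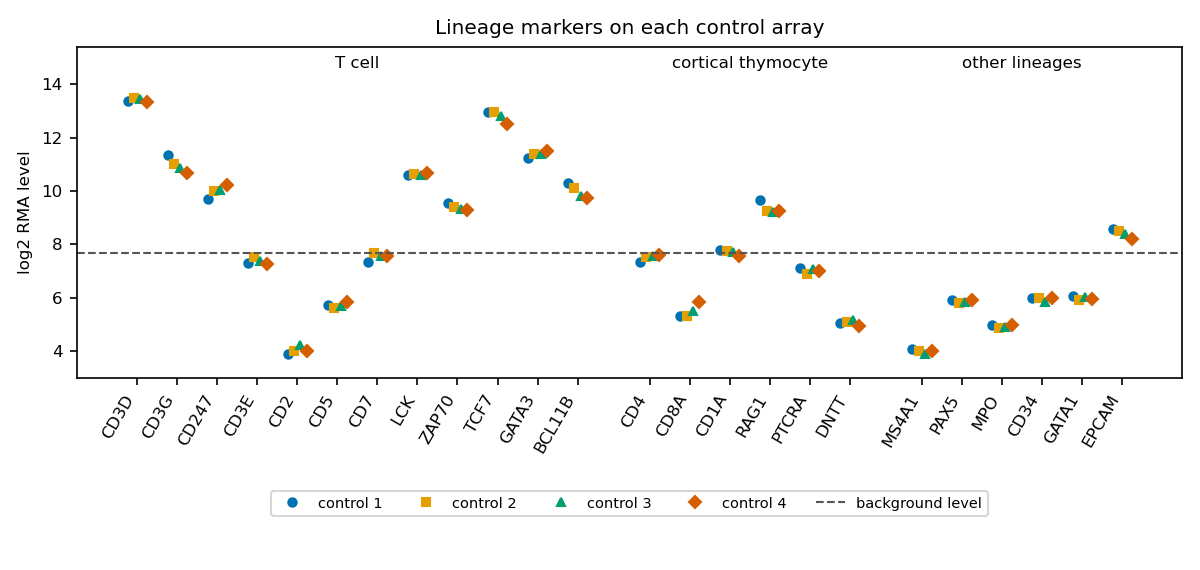
Log2 RMA level of lineage markers on each of the 4 control arrays, 1 symbol per array, with the background level as a dashed line. CD3D lies between 13.34 and 13.48, CD2 between 3.89 and 4.21, and the B cell, myeloid and erythroid markers shown lie below the line on each array. Not shown are the 3 of 15 B cell markers and the 2 of 16 erythroid and megakaryocyte markers with a mean above the line.

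The kinases and adaptors below the receptor were mostly above background. Of 24 measured genes of proximal receptor signalling, 21 were above background, against 39% of all genes. LCK, the kinase that starts the signal, read 10.60, 10.63, 10.61 and 10.67, a spread of 0.07, while a second probe set had an SD of 0.24. ZAP70, the kinase it activates, averaged 9.39 ± 0.13, and the phosphatase PTPRC averaged 11.76 ± 0.24. GRAP2, DGKA and RASGRP1 were at or below background.

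Among T lineage transcription factors, 20 of 27 were above background, against 39% of all genes, and 9 were in the top 10%. TCF7, a factor that acts with WNT and NOTCH signals to set T cell fate, read 12.98, 12.95, 12.80 and 12.50. GATA3, which commits cells to the T lineage, averaged 11.38 ± 0.10 and LEF1, a relative of TCF7, 12.59 ± 0.10, each in its brightest probe set. BCL11B, which shuts off other fates, read 10.29, 10.13, 9.82 and 9.72. Both TCF7 and BCL11B were thus highest on control 1 and lowest on control 4 in these probe sets. For GATA3 the brightest probe set was highest on control 4, but its other probe sets, at 9.14, 9.13, 9.13 and 8.64 and at 7.97, 8.08, 8.13 and 7.91, were lowest there. The E proteins TCF3 (11.21 ± 0.14) and TCF12 (10.33 ± 0.04) were above background, and so was IKZF1 (12.09 ± 0.15), a lymphoid factor. ID1, an inhibitor of E proteins, averaged 6.69 ± 0.41 and was not. RUNX3, ID2, KLF2, IKZF3, FOXO1 and ZBTB7B were also at or below the line. ZBTB7A had the widest spread of this list, at 9.38, 9.32, 9.07 and 8.35. RUNX1 averaged 10.50 ± 0.05 in its brightest probe set, but the mean over its 10 probe sets fell below the line of 6.73 that goes with such means. The mean over the probe sets of ZBTB7A, at 5.67, was also below that line.

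Genes of the cortical thymocyte, the stage with both CD4 and CD8, were few above background, 2 of 12 against 39% of all genes. RAG1, which cuts the receptor genes for rearrangement, read 9.67, 9.23, 9.20 and 9.27, with control 1 highest. The mean over the probe sets of RAG1 was 6.67, below the line of 6.73 that goes with such means. CD1A, a surface mark of this stage, averaged 7.69 ± 0.10, just above the line, and fell below the line that is set without control 1. CD4 at 7.51 ± 0.12, CD8A at 5.50 ± 0.25 and CD8B at 4.87 ± 0.10 were at or below background, as was DNTT, the polymerase that adds bases at receptor joints, at 5.06 ± 0.09.

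Markers of other blood lineages and tissues were mostly at or below background, with exceptions that can be named. Of all genes, 61.0% were at or below background. None of 18 myeloid markers was above it, and MPO, the granule peroxidase, averaged 4.93 ± 0.06. Of 15 B cell markers, 3 were above: IGLL1, a surrogate light chain gene, at 11.58 ± 0.34, IGHM at 8.62 ± 0.17 and CD79B at 7.98 ± 0.24. The defining B cell genes PAX5 (5.87 ± 0.04) and MS4A1 (3.99 ± 0.08) were below. Of 11 measured NK cell markers, EOMES alone was above, at 8.03 ± 0.19. Of 19 genes of effector T cells, GZMA, a granule protease, was the one above, at 10.07, 10.65, 10.61 and 10.58, with control 1 lowest; GZMB, IL2 and IFNG were below. Among 16 erythroid and megakaryocyte markers, TAL1 (9.42 ± 0.06) and EPOR (8.22 ± 0.07) were above, and GATA1 at 5.98 ± 0.07 and the globin gene HBB at 5.65 ± 0.11 were not. The mean over the probe sets of EPOR was 6.58, below the line of 6.73 that goes with such means. EPCAM at 8.42 ± 0.16 was the one of 16 stromal, endothelial and epithelial markers above the line. Of 12 measured stem and progenitor markers, 5 were above background, a share near the 39% of all genes. They were HHEX, LYL1, LMO2, GATA2 and MECOM, while CD34 averaged 5.94 ± 0.08 and KIT 4.80 ± 0.18. Among B cell markers the mean over probe sets leaves 1 gene above its line instead of 3, and with the line at 8.30 no NK marker is above it.

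**Figure D2:**
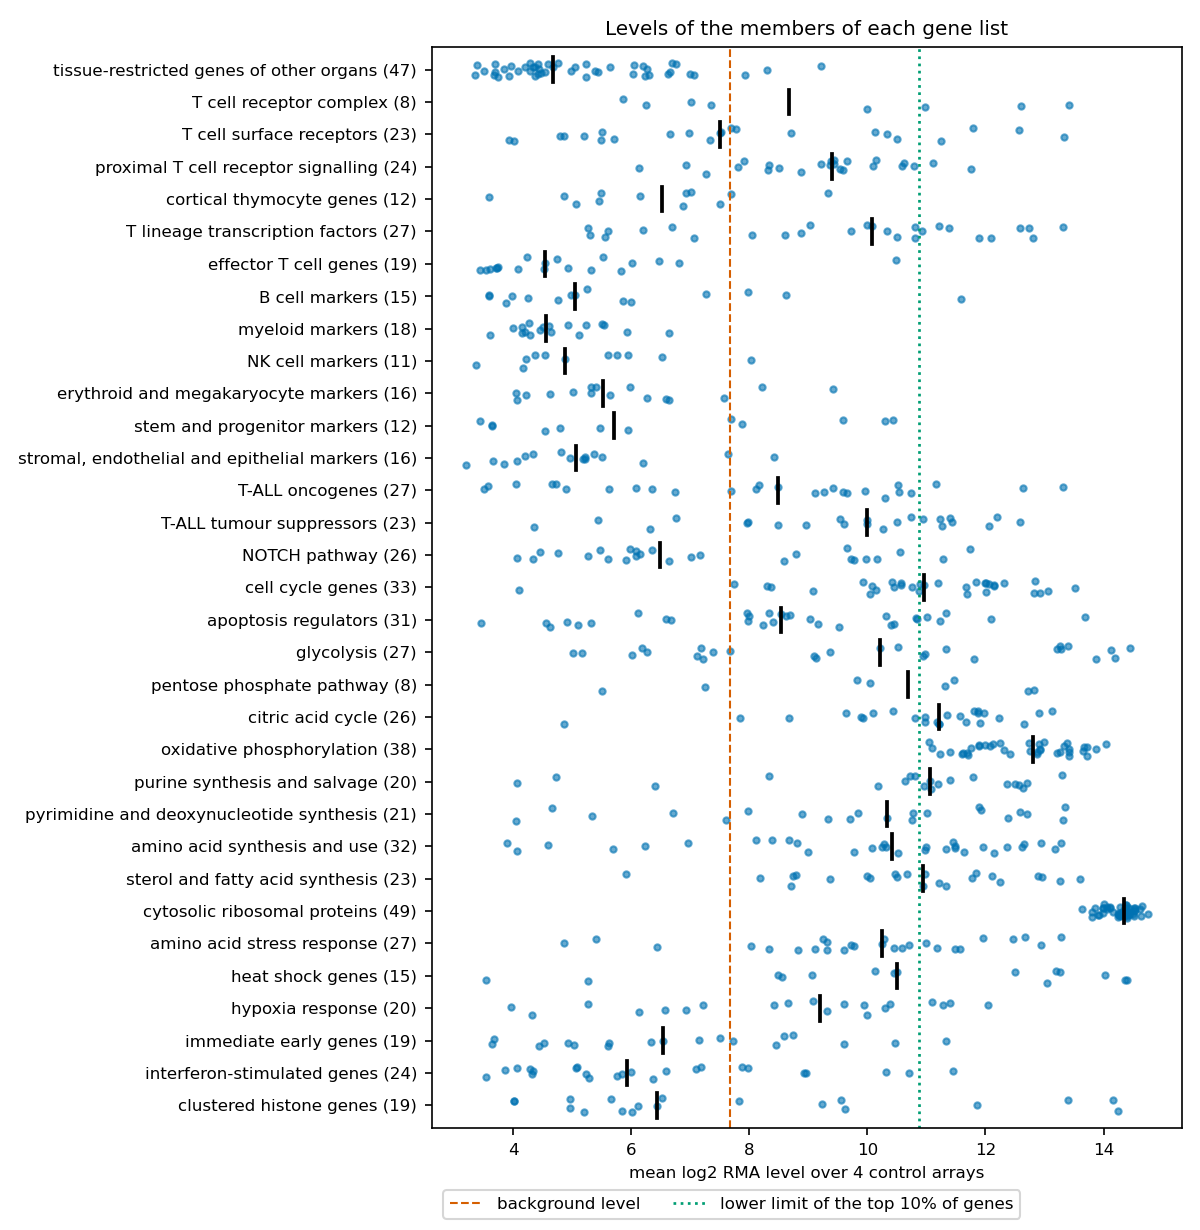
Mean log2 RMA level over the 4 control arrays of each measured member of the gene lists, 1 point per gene, with the number measured in brackets and the list median as a black bar. All 49 ribosomal protein genes and all 38 measured oxidative phosphorylation genes lie right of the limit of the top 10% at 10.87, and all 18 myeloid markers lie left of the background level at 7.67.

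The oncogene list showed which T-ALL drivers were read in these cells. Of 27 measured T-ALL oncogenes, 17 were above background, against 39% of all genes. Of the 17, 3 were in the top 10%, namely MYB, MYC and ZMIZ1. MYC, the growth regulator downstream of NOTCH1, read 12.65, 12.55, 12.67 and 12.65, a spread of 0.12. MYB, a progenitor factor, averaged 13.31 ± 0.09. ZMIZ1, a coactivator of NOTCH1 and the gene that the other arrays of the series target, read 11.07, 11.18, 11.19 and 11.20.

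Of the NKX2 and TLX homeobox genes, which T-ALL can switch on out of place, NKX2-5 was the one above background, at 10.65, 11.05, 10.66 and 10.60. It is a heart gene, known to be activated in CEM by a translocation to the BCL11B region. Control 2 was above the other arrays for it. NKX2-1 (6.35 ± 0.12), NKX2-2 (3.50 ± 0.04), TLX1 (4.90 ± 0.10) and TLX3 (3.58 ± 0.06) were at or below background, and of the HOXA genes HOXA10 was above at 8.48 ± 0.08 and HOXA5 below at 5.62 ± 0.08. TAL1, a basic helix-loop-helix factor of blood stem cells, read 9.51, 9.41, 9.38 and 9.38. Its partner LMO2 (9.59 ± 0.11) and its relative LYL1 (10.30 ± 0.15) were above background, and LMO1 (4.67 ± 0.14), LMO3 and TAL2 were not. STIL, the neighbour whose promoter drives TAL1 where the interval between them is deleted, averaged 9.96 ± 0.03. MEF2C, an early progenitor factor, averaged 10.52 ± 0.08. The probe set read for TAL1 is 1 of 4, and the other 3 were at or below the line.

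Of the NOTCH pathway 10 of 26 genes were above background, a share near the 39% of all genes. NOTCH1 averaged 9.65 ± 0.13 and NOTCH2 9.78 ± 0.08, while NOTCH3 (6.08 ± 0.09) and NOTCH4 (5.48 ± 0.11) were below. The nuclear partner RBPJ averaged 11.28 ± 0.05 and the protease ADAM10, which cuts the receptor at the cell surface, 11.74 ± 0.16. None of the 5 ligand genes DLL1, DLL3, DLL4, JAG1 and JAG2 was above the line. HES1, a direct NOTCH target, read 9.13, 10.15, 9.93 and 9.65, with control 1 lowest and control 2 highest. A second probe set of HES1 read between 8.93 and 9.03, with the same array lowest and highest and an SD of 0.05 in place of 0.44. The other targets listed, DTX1, NRARP, HES4, HEY1 and HEY2, were at or below background. Of the 10 members above background HES1 alone spanned 2-fold.

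Of 23 T-ALL tumour suppressors, 19 were above background, against 39% of all genes. CDKN2A, which encodes the inhibitors p16 and ARF and lies at a locus often deleted in T-ALL, read 5.60, 5.41, 5.35 and 5.38, and its neighbour CDKN2B averaged 4.35 ± 0.12. Both lay below the line on each array. CDKN1A at 6.33 ± 0.17 and CNOT3 at 6.76 ± 0.08 were the others below. FBXW7, which marks NOTCH1 and MYC for decay, averaged 8.96 ± 0.04. CDKN1B, an inhibitor of cyclin-dependent kinases, had the widest spread, at 10.31, 10.58, 10.94 and 11.14, lowest on control 1 and highest on control 4.

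Genes of the cell cycle and of the supply of building blocks lay mostly in the upper bands. Of 33 cell cycle genes, 32 were above background, against 39% of all genes, and 19 were in the top 10%. PCNA, the sliding clamp of DNA replication, averaged 13.52 ± 0.04 and MKI67 10.45 ± 0.09. CDK6, a kinase of early cycle entry, averaged 12.82 ± 0.08 in its brightest probe set, while another read 12.03, 11.34, 10.75 and 11.15, highest on control 1. CCND3 (11.19 ± 0.19) and CCND2 (9.93 ± 0.19) were above background, and the third D-type cyclin, CCND1, at 4.10 ± 0.12 was the cell cycle gene below it. The median SD of the list was 0.12.

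Among 31 apoptosis regulators, 22 were above background, against 39% of all genes. MCL1, a survival protein, averaged 11.34 ± 0.09 and stood in the top 10%, and BCL2 and BCL2L1, its relatives, both averaged 7.99 ± 0.09, near the line. BCL2L11, which opposes them, averaged 8.54 ± 0.10. BCL2A1, HRK and BMF were below. BCL2, BCL2L1 and BCL2L11 fall below their line when all their probe sets are averaged.

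Of the energy metabolism genes listed and measured, those of oxidative phosphorylation were all above background and those of sugar breakdown in part. All 38 measured oxidative phosphorylation genes were in the top 10%, between 11.05 and 14.05, and 25 of 26 citric acid cycle genes were above background, the exception being PC, pyruvate carboxylase, at 4.87 ± 0.05. Of 27 glycolysis genes, 18 were above, and over all genes the share above background was 39%. The genes above included GAPDH at 14.45 ± 0.04, LDHA at 14.19 ± 0.05 and LDHB at 14.13 ± 0.03, which encode the dehydrogenases of the pathway. Those below were mostly forms of other tissues, such as the liver form PKLR and the muscle forms ENO3 and PGAM2, but they also held the glucose transporters SLC2A1 (7.21 ± 0.18) and SLC2A3 (7.39 ± 0.61). Both hexokinases HK1 (10.70, 10.86, 10.86 and 11.35) and HK2 (10.21 ± 0.06) were above background. PKM, the pyruvate kinase of most tissues, averaged 9.13 ± 0.16. In the pentose phosphate pathway 6 of 8 genes were above background, TKT at 12.82 ± 0.12 and TALDO1 at 12.72 ± 0.04 among them.

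Nucleotide synthesis was represented by 17 of 20 purine genes and 16 of 21 pyrimidine and deoxynucleotide genes above background, against 39% of all genes. TYMS, which makes thymidylate, averaged 13.32 ± 0.04 and RRM2, a subunit of ribonucleotide reductase, 12.70 ± 0.07. DCK, which activates nucleoside drugs such as cytarabine, read 11.72, 11.78, 11.95 and 12.10. HPRT1, of purine salvage, averaged 12.64 ± 0.03. SAMHD1, which breaks down deoxynucleotides, averaged 4.05 ± 0.13 and CDA, which inactivates cytidine analogues, 4.66 ± 0.12, both below the line. Sterol and fatty acid synthesis had 22 of 23 genes above background, with MVD the one below.

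The protein synthesis machinery lay at the top of the array's scale. All 49 ribosomal protein genes listed were in the top 10%, between 13.64 and 14.75, the highest mean of any gene. The 20 genes named for their high means were 18 ribosomal protein genes, the elongation factor EEF1A1 and GAPDH. They lay between 14.45 and 14.75, and their order is not one of RNA amount. The median SD of the ribosomal protein genes was 0.04, against 0.13 over all genes above background and 0.11 over the top 10%. Array signal is known to be compressed near its upper end, and the part of that in the small SD was not tested. The second probe set of RPS23 read 7.76, 7.18, 7.41 and 8.34, a wider spread than in the brightest one, whose SD was 0.01. Many of these genes have processed pseudogenes of near-identical sequence, and several were read by probe sets that the maker marks as matching more than 1 transcript, so single members are uncertain. RPL23 stood apart from the list with 13.13, 13.79, 13.79 and 13.83, control 1 being lowest. A second probe set of RPL23 read 8.45, 8.03, 7.92 and 7.64, with control 1 highest, so the low value on control 1 was not shared between the probe sets.

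Ribosomal protein genes are known to start transcription within a run of pyrimidines. Sequences 30 bases long, 15 before and 15 from the RefSeq start on, were read from RefSeq's annotation of GRCh38.p14. Promoters were matched for 14952 of the genes (73.7%), too few for a check of sequence over all genes, and for 38 of 49 ribosomal protein genes, so the shares describe the matched genes alone. The letters CTTTCC on the transcribed strand were in this window for 34.2% of the matched ribosomal protein genes, 4.10% of the top 10% and 2.25% of all matched genes. The letters CTCTTTC were there for 18.4%, 1.46% and 0.769% of the same sets. On the opposite strand CTTTCC was found for 2.63% of the ribosomal protein genes and 1.40% of all matched genes, and CTCTTTC for 2.63% and 0.388%. TATAAA was on either strand, in a window that reaches 250 bases before the start and 50 from it on, for 10.5% of the ribosomal protein genes and 11.4% of all matched genes. The 2 pyrimidine motifs can overlap, as in RPL28. Shown are the start windows of the 5 genes among the 20 with the highest means that hold a match, with the matched letters in capitals, CTCTTTC where it is present and otherwise CTTTCC.
RPL28 (chr19:55385917-55385946, plus strand): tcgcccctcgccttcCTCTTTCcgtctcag
RPS10 (chr6:34426055-34426084, minus strand): ccgcgcatgctccttcCTTTCCagccccgg
RPS16 (chr19:39435935-39435964, minus strand): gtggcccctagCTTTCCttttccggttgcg
RPS19 (chr19:41860240-41860269, plus strand): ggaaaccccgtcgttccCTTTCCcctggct
RPS23 (chr5:82278340-82278369, minus strand): tcctgcggtgcttctCTCTTTCgctcaggc
In each window the RefSeq start follows the first 15 letters. A match is a run of letters and does not show what binds there.

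The second question was how far the control cultures differed from each other. The median SD among the 4 arrays was 0.12 over all genes and 0.13 over genes above background. Between arrays the median absolute difference of a gene above background ran between 0.097, for controls 2 and 3, and 0.199, for controls 1 and 4, and Pearson's r across all genes ran between 0.9946 and 0.9981 (genes are not independent replicates). A range of at least 1, or 2-fold between the lowest and the highest culture, was found for 164 genes (0.809% of all genes), and for 83 of those above background (1.05%). Of these 83 genes, 52 were lowest on control 1 and highest on control 4, against 15.2% of all genes above background, and 15 were lowest on control 4 and highest on control 1, against 20.4%. These counts rest on the 2 outer arrays: without control 1 the genes above background with such a range were 28, and without control 4 they were 26.

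Some control probe sets moved between the same arrays. The mean of the 18S ribosomal RNA probe sets was 13.37, 13.24, 13.06 and 12.70 on controls 1, 2, 3 and 4. That of the 28S ribosomal RNA probe sets was 9.41, 9.37, 9.42 and 9.37, with an SD of 0.03 against 0.29 for 18S. The probe set at the 5′ end of ACTB read 11.62, 12.85, 12.42 and 13.44, while that at its 3′ end read 13.98, 14.06, 13.96 and 14.12. The difference between the ends, a measure of how intact or how fully copied the RNA was, was 2.37, 1.21, 1.54 and 0.69. For GAPDH it was 0.34, 0.20, 0.27 and 0.15. Control 1 thus had the largest and control 4 the smallest difference for both genes. The array medians differed by little, between 5.18 and 5.20. The part of these measures in the differences between the cultures was not tested.

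**Figure D3:**
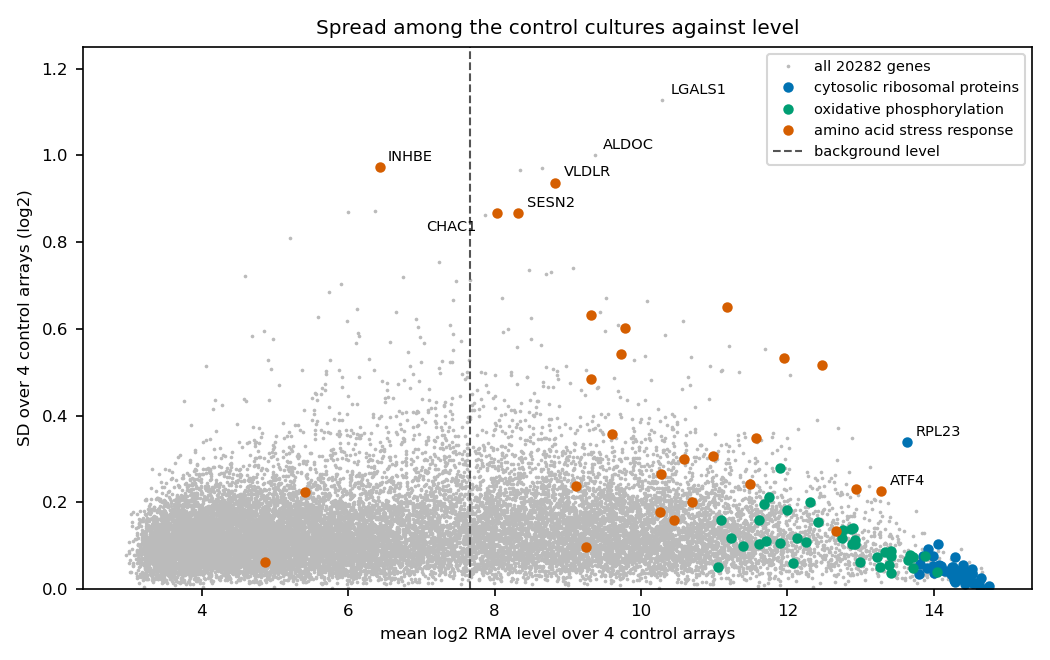
SD over the 4 control arrays against the mean log2 RMA level, 1 point per gene, with 3 gene lists in colour and the background level as a dashed line. Ribosomal protein genes lie at the lower right with a median SD of 0.04 apart from RPL23 at 0.34, and the amino acid stress response genes reach an SD of 0.94 above the line and of 0.97 for INHBE below it.

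Of the 20 genes with the largest SD among those with a mean of at least 8, 16 were lowest on control 1 and highest on control 4, 3 were the reverse and SRRM2 was neither. LGALS1, which encodes galectin-1, a secreted lectin, read 8.63, 10.56, 10.89 and 11.08, a 5.47-fold range. Control 1 stood alone, and without it the SD was 0.26 in place of 1.13. ALDOC, an aldolase typical of brain, read 7.92, 9.65, 9.65 and 10.24, a 4.99-fold range, and its SD was 0.34 without control 1.

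Others were also lowest on control 1 and highest on control 4. TSC22D3, a leucine zipper gene induced by glucocorticoids, read 7.44, 8.37, 9.06 and 9.70. USP44, a deubiquitinase, read 7.43, 7.75, 8.61 and 9.59. All 3 of TSC22D3, USP44 and MME were below the background level on control 1 and above it on control 4. MME, which encodes the surface peptidase CD10, read 7.59, 8.26, 8.74 and 9.32. For MME a second probe set above background read 7.32, 7.94, 8.29 and 8.81, with the same order of arrays. KIF21B, a kinesin, read 8.08, 8.98, 9.39 and 9.82. CHI3L2, a chitinase-like protein, read 8.56, 9.61, 9.86 and 10.08, with control 1 apart from the others. FAM107B read 9.04, 9.37, 9.97 and 10.40, and its second probe set 8.87, 9.08, 9.59 and 10.13. In FAM107B both probe sets thus ran in 1 order of arrays. GLUD2, an intronless copy of GLUD1, read 8.98, 9.09, 9.30 and 10.37 in a probe set that may also read GLUD1, and without control 4 its SD was 0.17 in place of 0.64.

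The genes that ran the other way were LOC100505497 at 9.51, 8.91, 8.90 and 7.76, LOC100505937 at 9.32, 8.98, 8.89 and 7.65, and SENP3, a SUMO protease, at 9.07, 8.90, 8.30 and 7.69. SRRM2, a scaffold of splicing speckles, read 10.72, 11.30, 10.45 and 9.81. Of the 20 genes, 3 had a second probe set above background, and each had the same array lowest and the same array highest. Probe sets at or below the line were not counted here. Some of these had the same lowest and highest array, as for SESN2, and others did not, as for ARG2 and SENP3. Over the 83 genes with a 2-fold range, 24 had such a second probe set and 19 of them (79.2%) matched the first in both, against 32.2% of 2964 genes above background with a second probe set. The 83 genes were picked for a wide range, which itself favours a match, so these shares are not like for like. Both probe sets of a gene also read the same RNA of each culture.

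**Figure D4:**
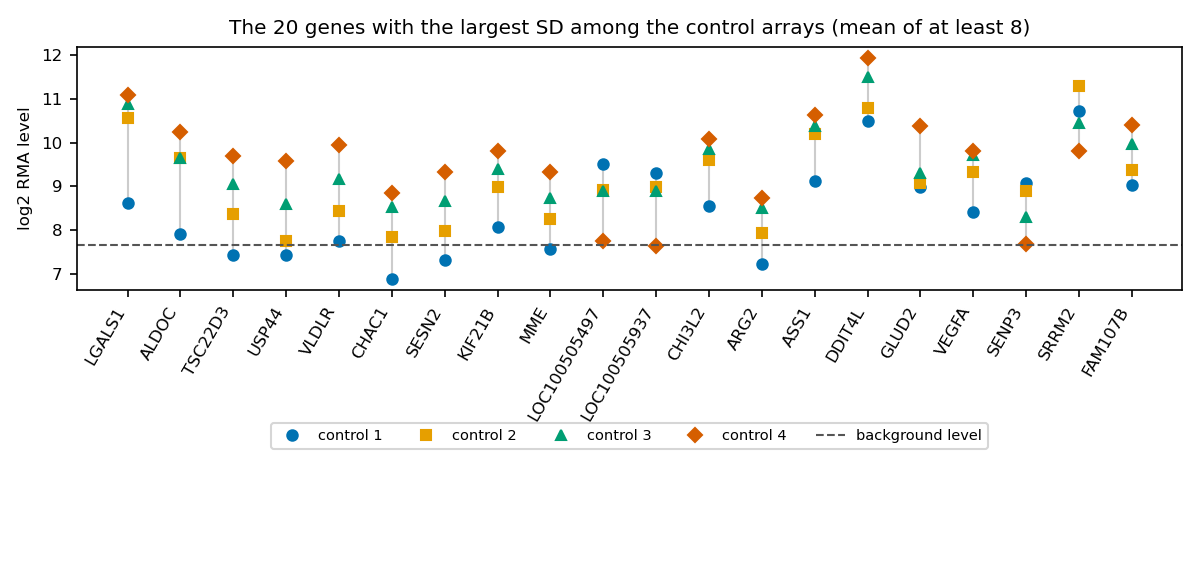
Log2 RMA level on each control array of the 20 genes with the largest SD among those with a mean of at least 8, with the SD decreasing rightward and the background level as a dashed line. Control 1 is lowest and control 4 highest in 16 of the 20, and the reverse holds in 3.

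The list with the most genes of a 2-fold range was the response to amino acid shortage and unfolded protein, in which the factor ATF4 turns on genes for amino acid supply. Of 27 genes measured, 24 were above background, against 39% of all genes. Of these 24, 10 had a range of at least 1, against 1.05% of all genes above background. Of the 24, 21 were lowest on control 1 and highest on control 4, against 15.2% of all genes above background. Their mean deviation from each gene's own mean was -0.48 on control 1, -0.11 on control 2, 0.19 on control 3 and 0.40 on control 4. Their median SD was 0.33, against 0.13 for all genes above background. Without control 1, 4 genes of this list above background had a range of at least 1, and without control 4 there were 7. The list was drawn up with earlier results of these arrays known, so its count is not independent evidence of its spread.

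ATF4 itself, whose protein is regulated mainly in translation, read 12.99, 13.24, 13.37 and 13.53. Its partner genes had larger SDs. ATF3 read 9.02, 9.60, 10.14 and 10.16, and DDIT3, which encodes CHOP, read 9.07, 9.71, 9.81 and 9.82. CEBPB, another partner, read 11.08, 11.56, 11.78 and 11.84. In each of these 4 genes control 1 was lowest and control 4 highest.

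The targets had the widest ranges. CHAC1, which breaks down glutathione, read 6.90, 7.85, 8.54 and 8.86, a 3.89-fold range. SESN2, a leucine sensor that restrains mTOR, read 7.32, 7.99, 8.67 and 9.33, a 4.03-fold range. VLDLR, a lipoprotein receptor, read 7.76, 8.43, 9.18 and 9.94, a 4.50-fold range. CHAC1 and SESN2 were below the background level on control 1 and above it on control 4, and VLDLR was above it on each array. DDIT4, which restrains mTOR, read 11.76, 12.41, 12.79 and 12.90, and its relative DDIT4L read 10.50, 10.78, 11.49 and 11.93. VEGFA, which encodes a growth factor for vessels, read 8.43, 9.33, 9.73 and 9.81, and without control 1 its SD was 0.26 in place of 0.63. INHBE, an inhibin subunit, had an SD of 0.97 but a mean of 6.43, below the line. Members with small spreads were ATF5 (9.24 ± 0.10) and the chaperone HSPA5 (12.67 ± 0.13).

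Amino acid enzymes and carriers overlapped with this list. Of 32 genes of amino acid synthesis and use, 26 were above background, against 39% of all genes. Of these 26, 12 were lowest on control 1 and highest on control 4 while none was the reverse. Over all genes above background these shares were 15.2% and 20.4%. ASNS, which makes asparagine and whose low level is the basis of asparaginase therapy, read 11.30, 11.79, 12.17 and 12.55. ASS1, which rebuilds arginine from citrulline, read 9.11, 10.19, 10.38 and 10.62. ARG2, a mitochondrial arginase, read 7.24, 7.93, 8.51 and 8.75. SLC7A11, the cystine carrier, read 9.07, 9.52, 10.14 and 10.40. These 4 were the members above background with a range of at least 1, and without control 1 none had it. PHGDH, the first enzyme of serine synthesis, read 10.57, 11.03, 11.04 and 11.31. OTC and ARG1, urea cycle genes of liver, were below background.

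The ATF4 response is known to act through a composite element with the letters TGATGNAA. This motif was chosen for the search after the levels were seen. In the 250 bases before the start it was found, on either strand, for 5 of 22 matched genes of the list (22.7%) and for 3.15% of all 14952 matched genes. The stretches of 58 bases around these matches are shown, from RefSeq on GRCh38.p14 and read along the gene, with the match in capitals; in CHAC1 and HERPUD1 it lies on the opposite strand and is read there as TGATGNAA.
ASNS (chr7:97872444-97872501, minus strand): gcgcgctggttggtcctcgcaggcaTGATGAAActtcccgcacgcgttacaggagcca
ATF3 (chr1:212565191-212565248, plus strand): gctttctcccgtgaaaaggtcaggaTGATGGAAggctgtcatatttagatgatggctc
CEBPG (chr19:33374046-33374103, plus strand): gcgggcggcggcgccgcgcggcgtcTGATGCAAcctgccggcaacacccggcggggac
CHAC1 (chr15:40953237-40953294, plus strand): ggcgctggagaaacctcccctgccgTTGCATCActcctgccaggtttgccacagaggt
HERPUD1 (chr16:56931941-56931998, plus strand): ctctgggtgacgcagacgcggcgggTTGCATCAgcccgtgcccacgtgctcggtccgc
The match began 68 bases before the start in ASNS, 191 in ATF3, 42 in CEBPG, 209 in CHAC1 and 176 in HERPUD1. A match is a run of letters in these windows and does not show that a factor was bound. CEBPG, a partner of ATF4, averaged 10.45 ± 0.16 and HERPUD1, a gene of protein disposal at the endoplasmic reticulum, 10.59 ± 0.30.

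Genes of the hypoxia response followed the same order of arrays. Of 20 measured, 13 were above background, against 39% of all genes. Of these 13, 11 were lowest on control 1 and highest on control 4, against 15.2% of all genes above background. The mean deviation of the 13 was -0.29, -0.08, 0.12 and 0.25 on controls 1, 2, 3 and 4. P4HA1, which modifies collagen, read 11.48, 11.82, 12.25 and 12.60, and BNIP3, a mitophagy receptor, read 10.65, 11.06, 11.23 and 11.44. With VEGFA, P4HA1 made up the 2 members above background with a range of at least 1. Without control 1 neither had it, and without control 4 there was 1. CA9, a carbonic anhydrase that low oxygen induces, averaged 6.93 ± 0.62, below background. Among glycolysis genes above background, ALDOC and the lactate carrier SLC16A1 (11.18, 10.79, 11.37 and 11.99) had a range of at least 1, while their median SD was 0.09. Without control 1, without control 2 or without control 4, 1 glycolysis gene above background had that range.

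**Figure D5:**
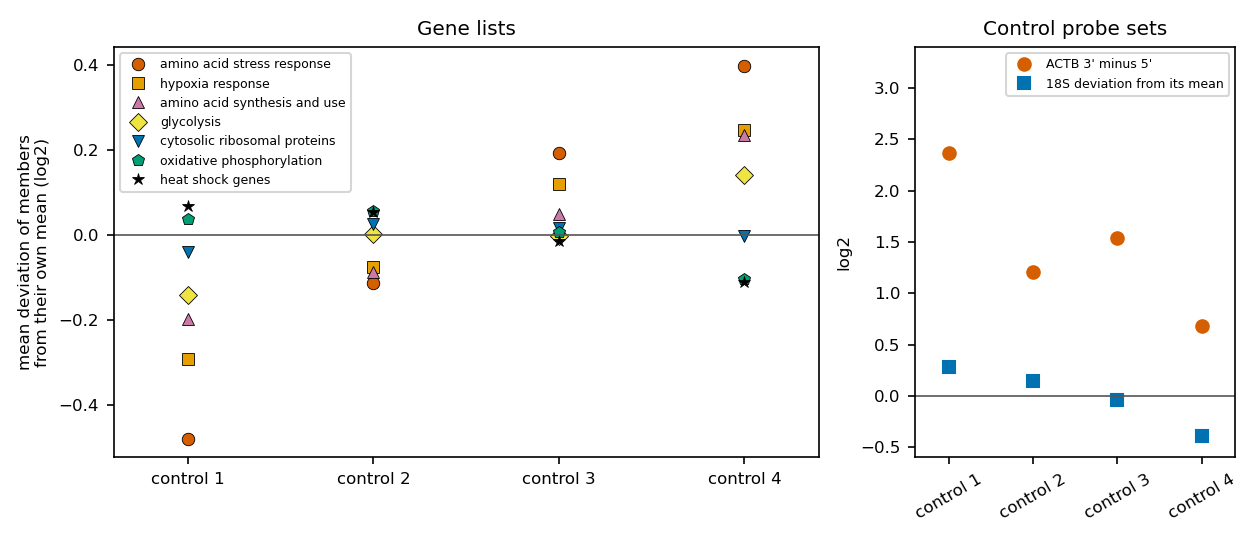
Left, the mean deviation of the members above background from their own mean over the 4 arrays, for 7 gene lists on each control array in log2 units. Right, the log2 difference between the 3′ and 5′ ACTB probe sets and the deviation of the 18S mean from its 4-array mean. The stress list runs between -0.48 on control 1 and 0.40 on control 4, and the ACTB difference between 2.37 on control 1 and 0.69 on control 4.

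The other lists varied in their order of arrays. Of the 38 oxidative phosphorylation genes, 29 were lowest on control 4, against 37.1% of all genes above background, with a mean deviation of -0.10 there and a median SD of 0.10; none had a range of 1. Of the 49 ribosomal protein genes, 27 were lowest on control 1, against 27.8% of all genes above background, with a mean deviation of -0.04. Of 13 heat shock genes above background, 6 were lowest on control 4 and highest on control 1, against 20.4% of all genes above background, and none was the reverse; HSPH1, a chaperone, read 8.93, 8.69, 8.43 and 7.91, while HSP90AA1 averaged 14.40 ± 0.03. Among interferon-stimulated genes, 7 of 24 were above background, with a mean deviation of -0.16, -0.004, 0.07 and 0.09 on controls 1, 2, 3 and 4. These means rose in the order of the stress list, but only 2 of the 7 genes were lowest on control 1 and highest on control 4. Over all genes above background that share was 15.2%. The 5 stem and progenitor genes above background had mean deviations of -0.18, -0.03, 0.09 and 0.13, and 2 of the 5 were lowest on control 1 and highest on control 4. Of the interferon genes, IFI6 read 7.16 on control 1, its lowest, and 8.32 on control 4, its highest. Of 19 immediate early genes, 7 were above, a share near the 39% of all genes, and FOS (4.44 ± 0.17) and EGR1 (5.60 ± 0.13) were not. JUN read 8.16 on control 1 and at least 8.85 on each of the others. The mean over the probe sets of JUN was 6.04, below the line of 6.73 that goes with such means. In the cell cycle, citric acid cycle, purine and pyrimidine lists no gene above background had a range of 1.

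T lineage and oncogene lists had smaller median SDs than the stress list. In the T-ALL oncogene list the median SD was 0.10 and no member above background had a range of 1. In the T lineage factor list it was 0.15, with ZBTB7A the one gene above background with a range of at least 1. In receptor signalling 2 genes above background had such a range, PTPN22 among them, both lowest on control 1 and highest on control 4. Without control 1 and without control 4 neither had it. PTPN22, a phosphatase that damps receptor signalling, read 7.96, 7.98, 8.34 and 8.97.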

How the data were processed

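Total RNA of 4 CEM cultures with a scrambled shRNA was labelled from 250 ng with a kit that copies from the 3′ end and read on Affymetrix HG-U133 Plus 2.0 arrays, per the labels' protocols. The authors deposited log2 values per probe set made with RMA, as the submitters' processing notes name it, with a version not given in the sources used here. The values were used as deposited, and both deposited tables match within 5.0e-09.

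Of 54675 probe sets, 62 were controls of the maker, 41479 had a single symbol, 961 several and 12173 none; gene IDs gave 40270 of the single symbols their current form. The members, the 33 gene lists (744 genes, 13 not measured by a single-symbol probe set) and the background line were chosen with earlier results of these data known. Genes named were a list of 83, of which 82 were measured, the 20 highest means, the 20 largest SDs with a mean of at least 8, and in each list the member above background with the largest SD; other members were named after their values were seen. Errors are SD over 4 arrays. With 1 group described, no test was run and no p-value is given. Python 3.11.15, pandas 2.3.3 and numpy 2.4.6 were used. The alternatives were the mean over probe sets, leaving out probe sets whose suffix marks shared sequence, median centring, other background lines and each array left out in turn. Some genes of the lists are counted but not reported here by name.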

Additional observations from a re-analysis of the deposited data

Results flagged for a closer look

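In groups of 4 arrays, a value was picked out when the highest or lowest array lay far from the nearest of the others relative to the whole range. Chance picks about 1 in 20 groups. Of the named genes examined, 13 were picked (9.77%), 8 of them by control 1, and of 33 list means 3 (9.09%), 2 of them by control 1. Of 9 array measures, such as 18S and the ACTB difference, none was. Some of the genes were named for their spread on these same arrays, and genes and lists are not independent. The shares picked can therefore not be compared with 1 in 20.

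Control 1 was the highest for RAG1 (9.67, the others 9.20 to 9.27), IL7R (8.37, the others 7.43 to 7.52) and NKX2-1 (6.53, the others 6.27 to 6.30), the last below background. Control 1 was the lowest for RPS15 (14.46), RPL28 (14.38), RPL23 (13.13), GZMA (10.07) and CDC25C (7.95). Control 4 was the highest for IKZF1 (12.31) and the lowest for RPS23 (14.51) and RPS21 (14.47), where the whole range was small. NKX2-5 was highest on control 2 (11.05, the others 10.60 to 10.66). CD34, below background, was lowest on control 3 (5.83).

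Among list means, the tissue-restricted list was lowest on control 1 (5.15, the others 5.19), as was the NOTCH pathway list (7.29, the others 7.39 to 7.40). The tumour suppressor list was highest on control 4 (9.62, the others 9.54 to 9.56). Control 1 also had the largest ACTB difference, 2.37, and the highest 18S value, 13.37; their part in these values was not tested.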

How the results depend on the processing

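No paired analysis was possible because 1 group was described and no test was run. The median SD kept within 1.5 times of its value under each alternative, between 0.10 and 0.14, and so did the number of genes above background, between 6121 and 11093. Leaving out 1 array gave 55 to 162 genes with a range of at least 1 and 26 to 85 such genes above background, 0 to 2 in receptor signalling, 1 to 2 in glycolysis, 0 to 4 in amino acid synthesis, 4 to 10 in the stress response and 0 to 2 in hypoxia; 3 arrays cannot span more than 4. With the mean over probe sets, 1 gene of receptor signalling, 1 of glycolysis and 1 of hypoxia had that range, and 1 B cell marker was above its line; of 120 genes above the line with that range, 47 were among the 83. With the line at 6, 135 genes above it had the range. That line left above it 15 tissue-restricted genes, 7 of the receptor complex, 7 cortical thymocyte, 4 effector T cell, 1 myeloid, 2 NK cell, 6 erythroid, 3 stromal, 17 NOTCH pathway, 11 immediate early and 11 interferon genes. With the line at 8.30, 1 tissue-restricted, 1 cortical thymocyte, 0 NK cell, 1 erythroid and 3 stem cell genes were above it. The other list counts stayed within 1.5 times. Of 140 named genes, 16 changed side with the mean over probe sets, 12 with the line at 8.30, 7 with the line at 6 and 2, CD1A and IL7R, without control 1; without probe sets of shared sequence 20 of 100 did, MYC, TAL1, ASNS and RUNX1 among them, whose remaining probe sets are dim. The SD of a named gene moved by over 1.5 times for 49 of 140 without control 1 and 37 without control 4. The cause of these changes was not tested.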
